A study of Mus musculus with 2 samples.

Results

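The nuclear oxidative phosphorylation genes described here are the nucleus-encoded subunits of respiratory complexes I to V in ovarian cells of newborn mice. They were taken by symbol: Nduf without Ndufaf, Sdha to Sdhd, Uqcr, Cox4 to Cox8 and Atp5. Of the 21018 genes shared by both count tables, 90 met this rule, namely 39 of complex I, 4 of complex II, 8 of complex III, 18 of complex IV, 17 of complex V and 4 complex II assembly factors (Sdhaf1 to Sdhaf4) whose symbols also start with Sdha. All 90 had at least 1 UMI (unique molecular identifier, a tag that marks each captured RNA molecule) in germ or granulosa cells, and 82 reached a level of 0.5 per 10,000 UMIs in one of these classes.

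Complexes I to IV pass electrons from NADH and succinate to oxygen. Complexes I, III and IV, but not II, pump protons across the inner mitochondrial membrane as they do so, and complex V, the ATP synthase, uses the gradient to make ATP. Most subunits are encoded in the nucleus and imported, whereas a small core of complexes I, III, IV and V is encoded by the mitochondrial genome, so that both gene sets must be expressed for a complete complex. Oocytes carry large maternal stocks of mitochondria and depend on respiration, while granulosa cells, which enclose them, pass them pyruvate.

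Ovaries of C57BL pups were profiled at postnatal day 3 by droplet single-cell RNA sequencing of the 3′ ends of transcripts, with 1 library per group. In both groups the mother received melatonin (MLT) from late pregnancy to postnatal day 3. In the DEHP_MLT group she was also given DEHP, a phthalate plasticizer, by gavage, and in the MLT group DMSO took its place. The numbers of mothers, pups and ovaries behind each library are not given in the sources used here, and a group without melatonin was not analysed here. The study asks whether melatonin counters maternal DEHP exposure while primordial follicles form. One conflict could not be settled. The counts given for the MLT sample sit in a table named for DEHP_MLT, and those of the DEHP_MLT sample in one named for MLT. Each library is named here by its sample title, and every direction between libraries would turn round if the table names were the right ones.

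There were 5277 barcodes with 80657690 UMIs in the library labelled MLT, and 4819 barcodes with 117355739 UMIs in that labelled DEHP_MLT. The lowest barcode total was 2031 UMIs in the first and 6923 UMIs in the second, and 4 barcode sequences occurred in both. Cells were gated by markers into germ (Dazl, Sycp3, Figla), granulosa (Fst, Hsd3b1, Inha, Aard), stroma and endothelial classes, with 202 and 609 germ cells, 607 and 298 granulosa cells, 2440 and 2016 stroma cells, and 136 and 92 endothelial cells. Here and below, paired values are those of the library labelled MLT first and of the library labelled DEHP_MLT second. Germ cells had a median of 15067 and 63888 UMIs per cell, against 16327 and 19453.5 in granulosa cells and 10693 and 11419 in stroma cells.

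The gates were checked with markers they had not used. The germ genes Ddx4, Sohlh1, Zp3 and Nobox together stood at 12 and 11.3 UMIs per 10,000 in germ cells, against 0.822 and 0.590 in granulosa cells. The granulosa genes Foxl2, Amhr2, Fshr and Kitl stood at 13.6 and 12.6 in granulosa cells and at 0.592 and 0.509 in germ cells. Each of these classes therefore carried its own markers at more than 10 times the level seen in the other. No doublet caller was run, and the parts of doublets and of free RNA in the residual levels were not tested. Haemoglobin and other erythroid genes stood at 3.29 and 70.7 per 10,000 in germ cells and at 4.30 and 66.1 in granulosa cells, so the library labelled DEHP_MLT held more erythroid RNA in every class.

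Nuclear oxidative phosphorylation transcripts took a larger share of the RNA of germ cells than of any other gated ovarian class. A level is the number of UMIs of a gene, pooled over the cells of a class in a library, per 10,000 UMIs of that class, with a 95% exact Poisson interval that covers counting error only. Each transcript yields a single 3′ tag whatever its length, so levels of different genes can be set side by side as tags, although capture may differ between genes. Summed over the 90 genes, the level in germ cells was 403 (402 to 405) and 458 (457 to 458). It was 231 and 231 in granulosa cells, 213 and 221 in stroma cells and 215 and 238 in endothelial cells. Germ cells therefore stood apart from the other classes in both libraries, while granulosa, stroma and endothelial cells lay close to each other. The log2 ratio of the sums, germ over granulosa, was 0.80 and 0.99. Counted per cell, germ cells held 1741 and 2955 such UMIs and granulosa cells 581 and 669, and total UMIs per cell also differed between these classes.

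The 13 subunits encoded by the mitochondrial genome were ordered differently. Their summed level was highest in granulosa cells, at 726 and 906 per 10,000, followed by germ cells at 529 and 543, endothelial cells at 374 and 432 and stroma cells at 316 and 311. The order of germ and endothelial cells in the library labelled MLT depended on the weighting: their log2 ratio was 0.50 with pooled UMIs, -0.046 with equal weight per cell and -0.037 after thinning each cell to 2000 UMIs. Granulosa cells thus combined a low nuclear sum with the highest mitochondrial sum of the 4 classes. For each nuclear UMI of these genes there were 1.31 and 1.19 mitochondrial UMIs in germ cells, 3.14 and 3.92 in granulosa cells, 1.49 and 1.40 in stroma cells and 1.74 and 1.82 in endothelial cells. In complex IV alone the ratio was 2.38 and 2.17 in germ cells against 7.02 and 8.57 in granulosa cells.

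**Figure D1:**
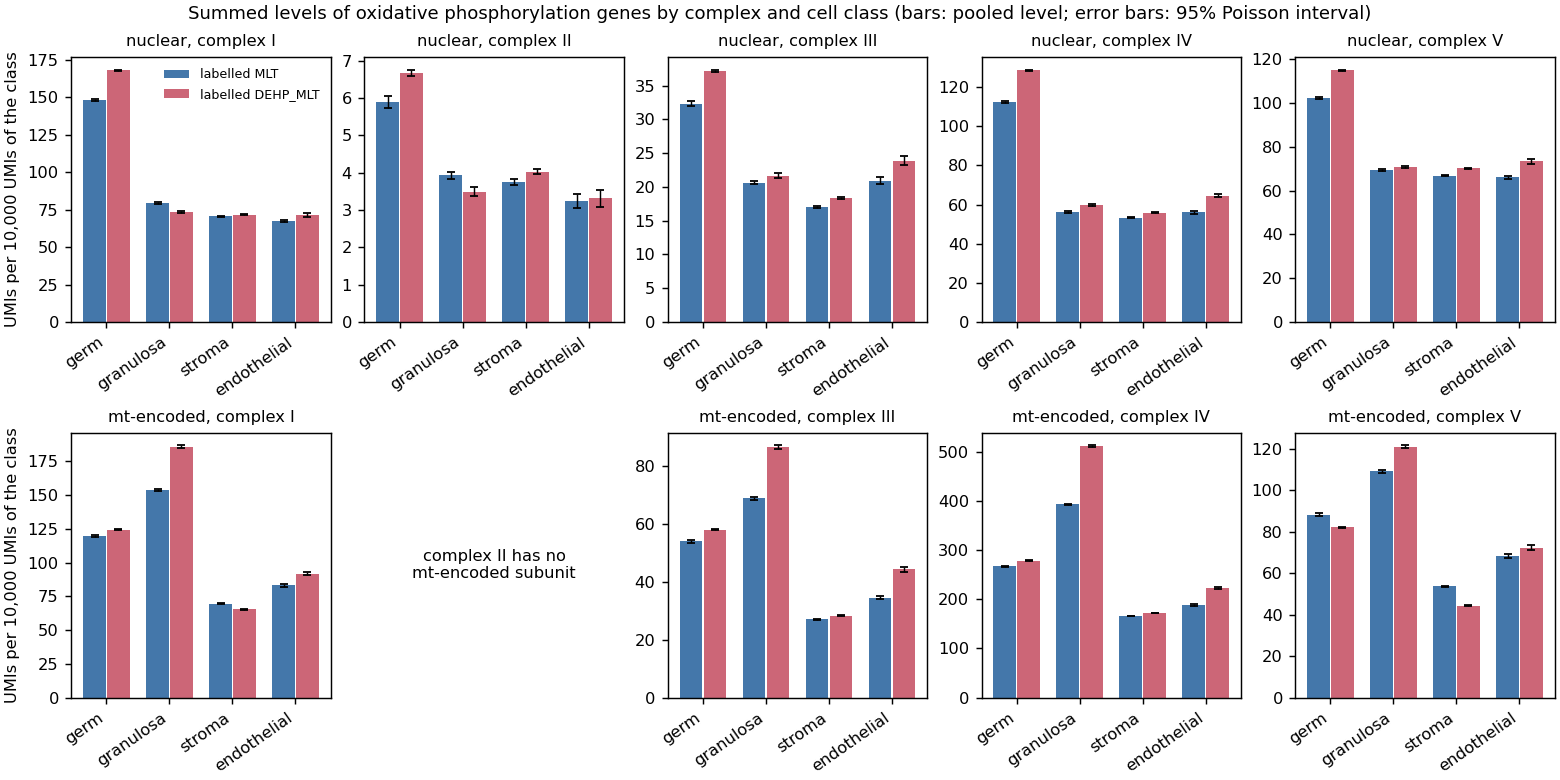
Summed levels (UMIs per 10,000 UMIs of the class, linear axes from 0) of nuclear subunits in the upper row and mitochondrially encoded subunits in the lower row, by complex and cell class. Bars are pooled levels per library and error bars 95% Poisson intervals. Every nuclear complex is highest in germ cells (complex I at 148 and 168), whereas every mitochondrially encoded group is highest in granulosa cells (complex IV at 394 and 512).

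All 5 complexes had their highest nuclear sum in germ cells, by unequal margins. Complex IV stood at 112 and 128 in germ cells and 56.1 and 59.8 in granulosa cells, and complex I at 148 and 168 against 79.4 and 73.5. Complex III stood at 32.3 and 37.2 against 20.6 and 21.7. Complex V, at 102 and 115 against 69.5 and 70.8, and complex II, at 5.89 and 6.68 against 3.93 and 3.49, also had intervals apart in both libraries.

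Gene by gene, 62 of the 90 members (68.9%) were higher in germ than in granulosa cells, 2 were lower and 26 met neither call. A gene was called when its levels differed at least 1.5-fold, with intervals apart and in the same direction in both libraries, and log2 ratios were computed after adding 0.01 per 10,000 to each level. Among all 20802 genes with a UMI in these classes, 20.8% were called higher and 23.8% lower, and among genes at 0.5 per 10,000 or more these shares were 38.3% and 30.2%. The members' median log2 ratio was 0.82 and 1.01, beside -0.07 and -0.00 for all genes and 0.22 and 0.28 for genes at 0.5 per 10,000 or more. The call rests on the 2 libraries as its only repeats, and no p-value can be given.

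**Figure D2:**
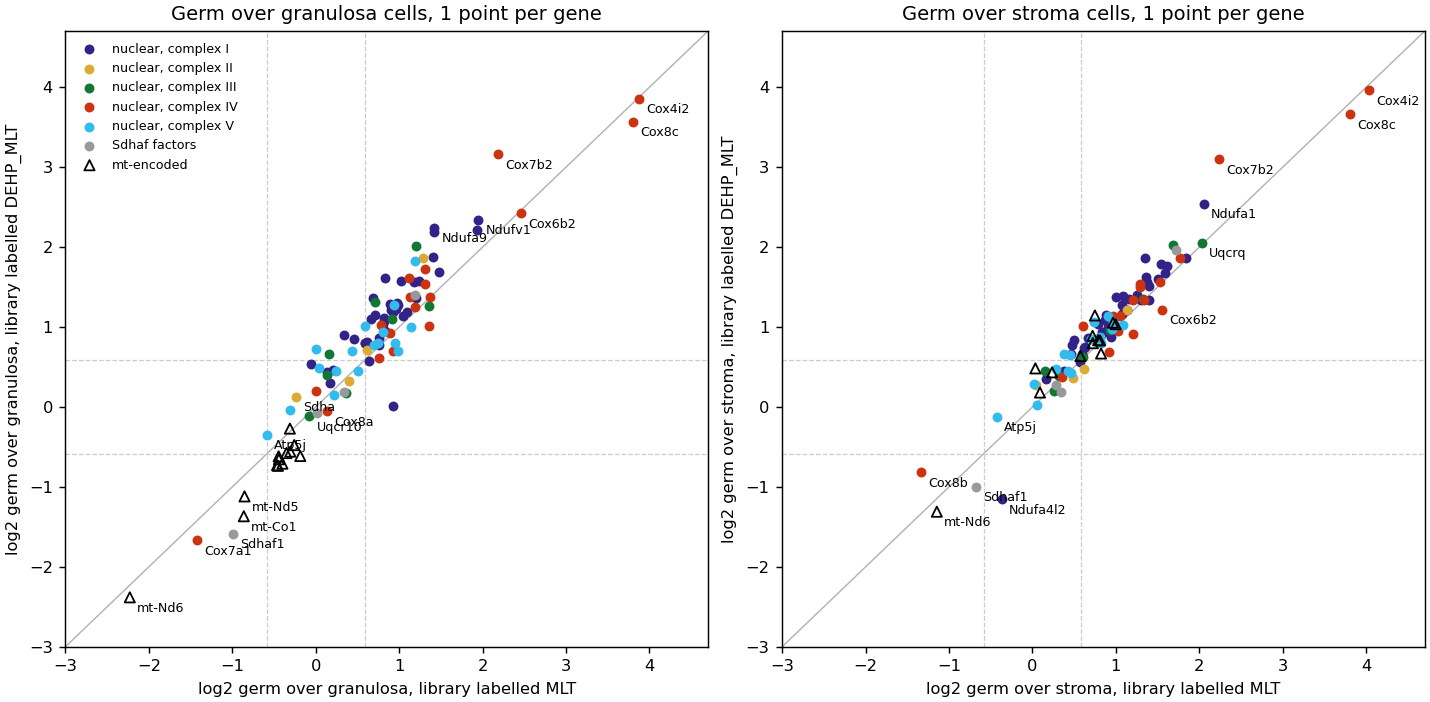
Log2 ratio of levels between classes for each gene, in the library labelled MLT (x axis) and the library labelled DEHP_MLT (y axis), germ over granulosa on the left and germ over stroma on the right, with dashed lines at 1.5-fold. Most nuclear genes (filled) lie above 1.5-fold on both axes. The mitochondrially encoded genes (triangles) lie below 0 against granulosa cells, and all but mt-Nd6 lie above 0 against stroma cells.

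In complex I, the NADH dehydrogenase, 31 of 39 members were higher in germ cells and none was lower, with a median log2 ratio of 0.83 and 1.15. Ndufv1, which carries the flavin that accepts electrons from NADH, had the highest ratio: it stood at 4.06 and 4.89 in germ cells and at 1.04 and 0.955 in granulosa cells, a log2 ratio of 1.95 and 2.34. Ndufa1, a small accessory subunit of the membrane arm, stood at 4.42 and 5.36 against 1.15 and 1.15 (1.93 and 2.21). Both genes had granulosa levels far below their germ levels in each library. Other members over 1.4 in both libraries were Ndufs6 (1.47 and 1.69), Ndufb6 (1.42 and 2.19), Ndufa9 (1.42 and 2.24) and Ndufs7 (1.41 and 1.87), the last of which is an iron-sulphur subunit of the core.

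Over all gated cells, the most abundant gene under the complex I symbols was Ndufa4, at 8.64 and 8.98 in germ cells and 4.05 and 3.95 in granulosa cells. Its protein is now placed with cytochrome c oxidase. In germ cells of the library labelled DEHP_MLT Ndufa7 stood higher, at 9.97. Ndufs4, an accessory subunit of the matrix arm, had the lowest ratio of the complex in the library labelled MLT but not in the other, with 1.85 and 2.22 in germ cells against 1.92 and 1.53 (-0.05 and 0.53). Ndufa13, Ndufb3 and Ndufb1-ps, whose symbol marks a pseudogene, met the call in neither library. Ndufa2, Ndufa8, Ndufa12 and Ndufa4l2 met it in a single library. The core subunits Ndufs1, Ndufs3, Ndufs7, Ndufs8, Ndufv1 and Ndufv2 were each called higher. Ndufs1 was the least abundant of these, at 0.631 and 0.548 in germ cells.

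Complex II, succinate dehydrogenase, was split by subunit. Sdhb, the iron-sulphur subunit, stood at 2.55 and 3.24 in germ cells and 1.05 and 0.883 in granulosa cells (log2 1.28 and 1.86). Sdha, the flavoprotein that is its partner in the catalytic head, stood at 1.19 and 1.17 against 1.41 and 1.08 (-0.24 and 0.13). The membrane anchor Sdhc was called higher (0.62 and 0.71), and the other anchor, Sdhd, was not (0.40 and 0.32). Among the assembly factors of the same prefix the directions were opposite. Sdhaf4, a chaperone of Sdha, was higher in germ cells (1.56 and 1.55 against 0.679 and 0.584), whereas Sdhaf1, which serves the iron-sulphur clusters of Sdhb, was lower (0.218 and 0.198 against 0.444 and 0.614, a log2 ratio of -0.99 and -1.59).

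In complex III, the cytochrome bc1 complex, 4 of 8 members were higher in germ cells. Uqcrq, a small subunit and the most abundant member in germ cells, stood at 7.47 and 8.13 against 2.90 and 3.39 in granulosa cells (log2 1.36 and 1.26). The core protein Uqcrc1 stood at 3.19 and 4.31 against 1.39 and 1.06 (1.20 and 2.01). Uqcrc2 and Uqcr11 were the other called members. Uqcr10 did not follow them, with 3.42 and 3.68 in germ cells and 3.61 and 4.0 in granulosa cells (-0.08 and -0.12), and neither did Uqcrh, the hinge protein (0.36 and 0.18), nor Uqcrfs1, the Rieske iron-sulphur protein (0.14 and 0.40).

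Complex IV, cytochrome c oxidase, had the highest median ratio of the 5 complexes, 1.16 and 1.31, with 15 of 18 members higher in germ cells and 1 lower. Cox4i1, the regulatory subunit that binds ATP, was the most abundant of all 90 genes, at 19.7 and 24.5 in germ cells, 9.04 and 9.48 in granulosa cells, 10.1 and 11.2 in stroma cells and 10.7 and 12.8 in endothelial cells. The structural subunits Cox5b (10.8 and 12.8 against 4.36 and 4.43) and Cox6c (16.2 and 17.4 against 8.71 and 9.15) lay in the same order. Cox8a was even, at 7.37 and 7.87 in germ cells against 6.69 and 8.17 in granulosa cells (0.14 and -0.05).

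Several complex IV subunits have a second form encoded by another gene, and these held the highest ratios of the set. Cox4i2, the alternative form of Cox4i1 known from lung and low oxygen, stood at 2.13 (2.03 to 2.23) and 2.23 (2.19 to 2.28) in germ cells. It stood at 0.136 and 0.145 in granulosa cells, 0.121 and 0.134 in stroma cells and 0.0616 and 0.136 in endothelial cells. The germ level was 14.7 and 14.5 times that of granulosa cells after the added constant, in both libraries the highest fold of the 90 genes on that scale. The constant weighs most on rare genes, and from the levels alone the gap of the rarer Cox8c is wider than that of Cox4i2. Cox4i2 supplied 9.72% and 8.36% of the Cox4 UMIs of germ cells, against 1.48% and 1.51% in granulosa cells and 1.19% and 1.19% in stroma cells, so Cox4i1 remained the main form in germ cells.

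Cox6b2, a form known from testis, stood at 2.24 and 2.55 in germ cells, 0.398 and 0.466 in granulosa cells, 0.758 and 1.09 in stroma cells and 0.150 and 0.269 in endothelial cells. It made up 24.6% and 26.6% of Cox6b UMIs in germ cells, 8.92% and 9.23% in granulosa cells and 18.3% and 23.0% in stroma cells. Further forms known from testis were rare but also skewed. Cox8c stood at 0.212 and 0.219 in germ cells and 0.00590 and 0.00927 in granulosa cells, and Cox7b2 had 49 and 434 UMIs in germ cells against 7 and 3 in granulosa cells. The heart and muscle form Cox6a2 had 15 and 40 UMIs in germ cells and 1 and 0 in granulosa cells, which is at the floor of 3 counts, so no fold is given.

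Because cells differ in depth, the same genes were counted after each cell was thinned to 2000 UMIs. Cox4i2 then had a UMI in 26.7% and 29.1% of germ cells (70.8% and 89.8% before thinning), 4.12% and 2.35% of granulosa cells and 2.79% and 2.78% of stroma cells. Cox6b2 had one in 42.6% and 41.4% of germ cells, 9.23% and 7.72% of granulosa cells and 13.8% and 19.2% of stroma cells. Levels outside germ cells can be set beside the germ markers of the gate, which the gate itself kept low in the other classes, and the parts of free RNA and doublets in them were not tested. Per UMI of those markers there were 0.00984 and 0.0106 UMIs of Cox8c in germ cells, 0.00962 and 0.0151 in granulosa cells and 0.00945 and 0.0131 in stroma cells, the granulosa values resting on 9 and 8 UMIs. For Cox4i2 this ratio was 0.0986 and 0.108 in germ cells, 0.221 and 0.235 in granulosa cells and 0.196 and 0.217 in stroma cells. For Cox6b2 it was 0.104 and 0.123 in germ cells but 0.649 and 0.757 in granulosa cells and 1.23 and 1.76 in stroma cells.

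Other alternative forms marked other classes. Cox7a1, the heart and muscle form of Cox7a2, was the single complex IV member lower in germ than granulosa cells: it stood at 0.0906 and 0.0898 in germ cells, 0.261 and 0.307 in granulosa cells and 0.0299 and 0.0295 in stroma cells. Cox8b had no UMI in granulosa or endothelial cells of either library and 0 and 6 in germ cells, against 42 and 28 in stroma cells. Ndufa4l2, a relative of Ndufa4 known from the response to low oxygen, stood at 0.193 or less in each of the 4 classes, but at 11.5 and 16.1 in cells gated as perivascular (79 and 89 cells), where it supplied 88.2% and 89.6% of the Ndufa4 family UMIs. Perivascular cells also held the highest Cox4i2 level, 3.93 and 5.69, or 25.7% and 30.1% of their Cox4 UMIs, which was above that of germ cells.

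**Figure D3:**
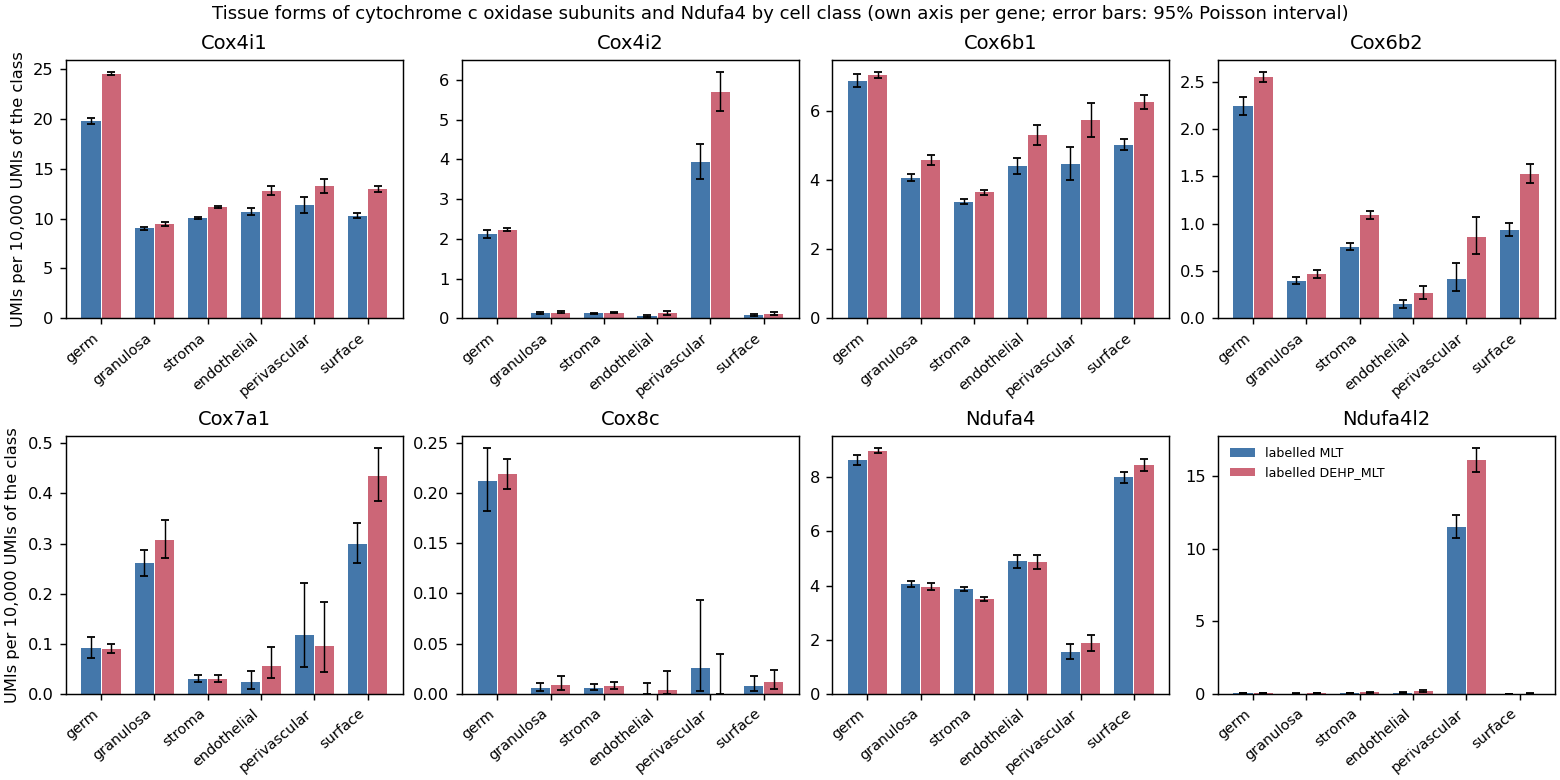
Levels (UMIs per 10,000 UMIs of the class, linear axes from 0 that differ between panels) of alternative complex IV forms and of Ndufa4 and Ndufa4l2 in 6 gated classes. Bars are pooled levels per library and error bars 95% Poisson intervals. Cox4i2 is high in germ (2.13 and 2.23) and perivascular cells (3.93 and 5.69), Cox6b2 and Cox8c are highest in germ cells, and Ndufa4l2 is high in perivascular cells.

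In complex V, 9 of 17 members were higher in germ cells and none was lower, with a median log2 ratio of 0.59 and 0.73. Atp5e, the epsilon subunit of the F1 part, was its most abundant gene, at 13 and 14 in germ cells and 6.56 and 8.63 in granulosa cells. Atp5f1, subunit b of the peripheral stalk, had the highest ratio, with 6.43 and 7.45 against 2.82 and 2.09 (1.19 and 1.83). Called members thus lay in the peripheral stalk and membrane parts (Atp5f1, Atp5o, Atp5j2, Atp5k, Atp5l, Atp5mpl, Atp5g2) as well as the F1 part (Atp5e, Atp5a1). The catalytic beta subunit Atp5b was even in the first library and not in the second (5.50 and 6.73 against 5.48 and 4.06). The gamma and delta subunits Atp5c1 (0.24 and 0.44) and Atp5d (0.04 and 0.49) were not called. Atp5j, coupling factor F6, had the lowest ratio, with 3.70 and 4.66 against 5.56 and 5.94, and met the call in the first library alone.

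The c ring of complex V is built from identical proteins made from 3 genes, which were used in different proportions. Atp5g2 made up 51.1% and 53.3% of their UMIs in germ cells and 38.1% and 44.0% in granulosa cells. Atp5g3 made up 15.9% and 16.2% in germ cells and 28.4% and 23.8% in granulosa cells. Reads of these genes, and of members with processed pseudogenes elsewhere in the genome, can be shared between near-identical copies, and how the authors' counting treated them is not known from the labels.

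None of the 13 mitochondrially encoded genes was called higher in germ than granulosa cells, and all 13 had a negative ratio in both libraries (median -0.44 and -0.66). The 3 called lower were mt-Nd6 (0.217 and 0.0491 against 1.05 and 0.298), mt-Nd5 (4.26 and 2.82 against 7.70 and 6.13) and mt-Co1 (73.5 and 72.3 against 134 and 187). The catalytic oxidase subunit mt-Co1 thus went opposite to its nuclear partners Cox5b and Cox4i1.

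Against stroma cells, 64 members were higher in germ cells and 2 lower (Sdhaf1 and Cox8b), where 24.1% of all genes were called higher and 22.3% lower. The members' median log2 ratio was 0.92 and 1.02, beside 0.00 and 0.04 for all genes and 0.31 and 0.34 for genes at 0.5 per 10,000 or more. Against endothelial cells 62 were higher and 1, Sdhaf1, lower, with 21.1% and 16.7% of all genes called. The shares against stroma and endothelial cells are over all genes with a UMI, rare genes included. Against granulosa cells the share called higher was 20.8% of such genes but 38.3% of genes at 0.5 per 10,000 or more. The nuclear members thus separated germ cells from each of the other 3 classes in like number. The mitochondrially encoded genes did not: 8 of 13 were higher in germ than stroma cells and 1, mt-Nd6, lower, and none was higher and 1 lower against endothelial cells.

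Among the somatic classes few members differed. Granulosa cells exceeded stroma cells in 4 members, namely Cox7a1 (log2 2.76 and 3.00), Uqcr11 (0.77 and 0.93), Atp5g3 (0.69 and 0.70) and Uqcrq (0.67 and 0.79). They were below in 3, Ndufa4l2 (-1.29 and -1.17), Cox6b2 (-0.91 and -1.21) and Cox8b, with 13.5% of all genes called higher and 10.2% lower. In the same comparison 12 of 13 mitochondrially encoded genes were higher in granulosa cells, all but mt-Atp8. Granulosa cells exceeded endothelial cells in 5 members and were below in 2, with 13.4% and 8.70% of all genes called. Stroma cells exceeded them in 2 and were below in 3, with 11.2% and 8.64% called. Cox7a2l, which helps join complexes into supercomplexes, was lower than in endothelial cells in both, and made up 65.2% and 63.2% of Cox7a UMIs in endothelial cells.

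Within germ cells the summed nuclear level varied little along oocyte growth. A few members followed it, no larger a share than among all genes. Germ cells of each library were ranked by 9 growth genes, the zona pellucida genes Zp1, Zp2 and Zp3 together with Gdf9, Bmp15, Npm2, Nlrp5, Ooep and Khdc3, and divided into 3 equal parts. The nuclear sum from the lowest to the highest part was 413, 392 and 406 in the library labelled MLT, and 461, 455 and 456 in the library labelled DEHP_MLT. The mitochondrial sum was 535, 541 and 503 in the first and 623, 531 and 478 in the second. With each cell thinned to the same number of UMIs, it was 463, 412 and 312 in the library labelled MLT. In the library labelled DEHP_MLT the thinned values were 612, 517 and 454. At equal depth the mitochondrial sum thus fell from part to part in both libraries, whereas the pooled values of the first were nearly flat. The median UMIs per cell of these parts were 18171.5, 22876 and 8286 in the first library and 63888, 77517 and 49607 in the second, so depth was lowest in the highest part.

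Cox4i2, Cox6b2 and Ndufs8 were at least 1.5-fold higher in the highest than the lowest part with intervals apart in both libraries. Cox4i2 stood at 1.14, 2.07 and 3.61 per 10,000 in the first library and at 1.15, 2.08 and 3.47 in the second (log2 1.66 and 1.59). Cox6b2 stood at 1.85, 2.05 and 3.06, and at 1.83, 2.58 and 3.22 (0.73 and 0.81). Ndufs8, an iron-sulphur subunit of the complex I core, stood at 1.37, 1.62 and 2.14, and at 1.48, 1.81 and 2.30 (0.64 and 0.63). In each library the middle part lay between the others for all 3 genes. Cox7b2 ran the other way, from 0.235 to 0.0615 and 0.0425 in the library labelled DEHP_MLT, and from 0.0894 to 0.0377 and 0.0348 in the other, where the intervals overlapped. Ndufs1, also of the complex I core, and Cox8c were called lower in the library labelled MLT alone (log2 -0.77 and -0.91). In the library labelled DEHP_MLT their log2 ratios were -0.55 and -0.23. In all, 3 and 4 of the 90 members were called higher and 2 and 1 lower. Of all genes 3.49% and 7.69% were called higher and 3.50% and 3.41% lower. The members' shares were thus below those of all genes in either direction, and the named genes do not mark the set as a whole.

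**Figure D4:**
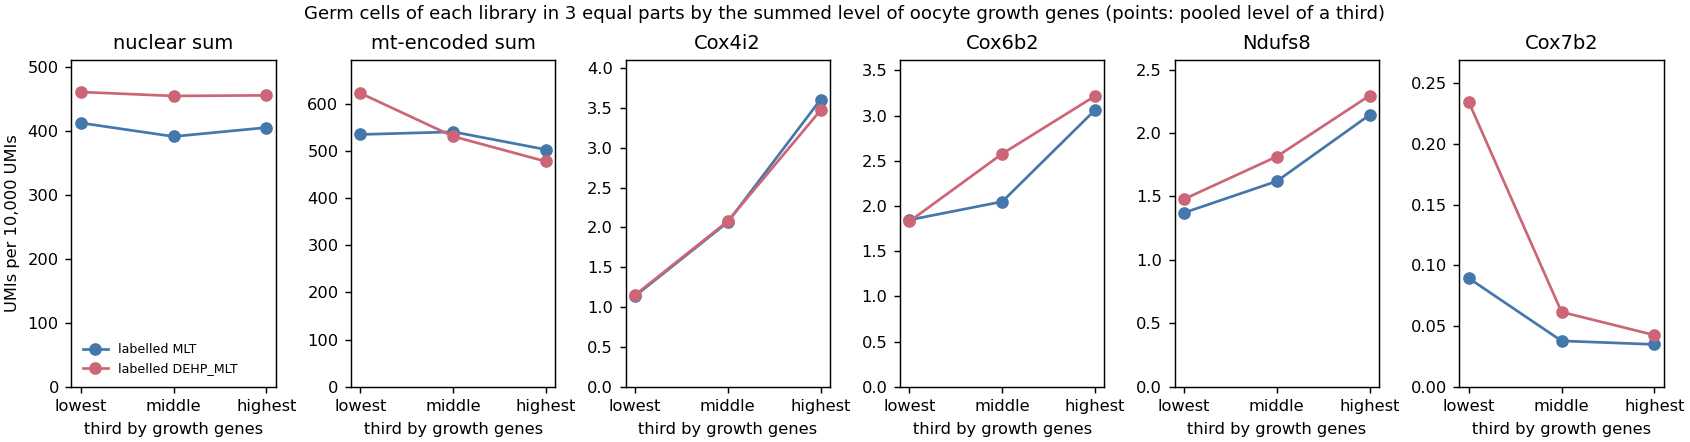
Levels (UMIs per 10,000 UMIs, linear axes from 0 that differ between panels) in germ cells divided into 3 equal parts by 9 oocyte growth genes, for each library. Points are pooled levels. The nuclear sum stays between 392 and 461, Cox4i2, Cox6b2 and Ndufs8 are highest in the highest part of both libraries, and Cox7b2 is highest in the lowest part.

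Single germ cells had a median nuclear level of 395 (quartiles 355 and 431) in the first library and 452 (416 and 490) in the second, against medians of 228 and 234 in granulosa cells. The mitochondrial level was more uneven between germ cells: its median was 346 with quartiles of 111 and 568 in the first library and 511 with quartiles of 378 and 628 in the second. In the library labelled MLT, 73 of the germ cells lay below 6923 UMIs, the lowest total of the other library. These had a nuclear level of 374 and a mitochondrial level of 228, against 404 and 538 in the 129 deeper cells, with germ markers of the gate at 23.5 and 21.5. The nuclear level of germ cells was thus above that of granulosa cells at either depth, while the mitochondrial level of the shallow cells was less than that of the deep ones. The part of depth in this was not tested. Cycling and non-cycling stroma cells had near-equal nuclear sums, 214 and 211 in the library labelled MLT and 222 and 221 in the other. In granulosa cells these were 231 and 230, and 225 and 246.

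Genes that assemble and control the complexes were counted in the same way, germ over granulosa, beside 20.8% of all genes higher and 23.8% lower. Among genes at 0.5 per 10,000 or more these shares were 38.3% and 30.2%. Of 44 assembly factors 22 were higher and 2 lower. The most abundant was Uqcc2, a complex III factor, at 8.30 and 8.62 in germ cells against 2.38 and 2.51, and the highest ratios were those of Lyrm7, which serves the Rieske protein (2.75 and 2.93), and Ndufaf4, a complex I factor (2.32 and 2.27). The lowest were Sdhaf1 and Cox20 (-1.41 and -1.40), a chaperone of mt-Co2. Of 78 mitochondrial ribosomal protein genes, whose products translate the mitochondrial messages, 48 were higher and 1, Mrpl27, lower, with a median of 0.75 and 0.98. Mrpl23, their most abundant member, stood at 5.34 and 5.38 against 1.92 and 1.85. Of 86 cytosolic ribosomal protein genes only 7 were higher and 2 lower (median 0.16 and -0.07), a smaller share than the background of all genes in either direction.

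Of 18 genes of the citric acid cycle and pyruvate dehydrogenase 7 (38.9%) were higher and 2 lower. The share higher was close to the 38.3% found among all genes at 0.5 per 10,000 or more. Fumarase, Fh1, had the highest ratio (1.73 and 2.40) and the malate dehydrogenase Mdh2 the highest level (3.05 and 3.78 against 1.62 and 1.33). Idh2, the NADP-linked isocitrate dehydrogenase, was lower in germ cells (0.287 and 0.228 against 1.98 and 1.36). Of 14 carriers and membrane proteins 5 were higher, also a share close to 38.3%, and 2 were lower. The lower ones were the outer membrane channel Vdac1 (-1.64 and -1.55) and the ADP/ATP carrier Slc25a4 (2.25 and 2.16 against 6.05 and 4.68).

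Of 16 regulators 7 (43.8%) were higher in germ cells and 1 lower. This stands beside 20.8% of all genes higher and 38.3% of genes at 0.5 per 10,000 or more, a level that 4 of the 16 reached. Tfb1m, which modifies mitochondrial ribosomal RNA, had the highest ratio (2.0 and 2.53). Nrf1, a transcription factor known to bind promoters of many respiratory genes, stood at 0.827 and 0.835 against 0.231 and 0.233 (1.79 and 1.80). Tfam, which packages and transcribes the mitochondrial genome, was also called (0.72 and 1.11). The coactivator Ppargc1a was the lower one, at 0.00459 and 0.00280 in germ cells against 0.0459 and 0.0475 in granulosa cells, so Nrf1 and Ppargc1a went in opposite directions.

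Promoters of 72 of the 90 members were matched by symbol in RefSeq (build GRCm38.p6), as 250 bases before to 50 after the start of the gene, and searched on both strands. The palindrome bound by Nrf1 is shown in capitals in the sequences given here. It was in 5 of the 72 (6.94%), beside 1.07% of all 27025 genes with a promoter. The form in which the fifth base is open, which includes the first, was in 19 (26.4%), beside 5.19%. The 5 members were Cox6a1, Atp5g2, Ndufa11, Atp5k and Uqcrc1, and all were called higher in germ than granulosa cells. The looser form was as common among matched members called higher (12 of 48, 25%) as among the others (7 of 24, 29.2%). The 60-base windows around the match that lie before the start are shown for 4 of them, 5′ to 3′ on the strand of the gene, with the Nrf1 palindrome in capitals, because they let the shared motif be seen beside the flanks that differ. They lie at chr5:115349086-115349145 (minus strand, match 162 bases before the start) for Cox6a1, chr15:102671055-102671114 (minus, 42) for Atp5g2, chr17:56717677-56717736 (plus, 60) for Ndufa11 and chr5:108434415-108434474 (minus, 50) for Atp5k.
Cox6a1: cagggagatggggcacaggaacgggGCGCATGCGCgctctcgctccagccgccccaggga
Atp5g2: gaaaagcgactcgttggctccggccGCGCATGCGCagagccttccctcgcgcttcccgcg
Ndufa11: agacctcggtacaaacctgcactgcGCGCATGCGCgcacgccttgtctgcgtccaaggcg
Atp5k: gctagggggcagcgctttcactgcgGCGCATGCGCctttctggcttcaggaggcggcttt

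In germ cells these genes stood as follows. Cox6a1, an oxidase subunit, was at 5.81 and 7.09 against 2.68 and 2.31 in granulosa cells, and Ndufa11, a membrane-arm subunit of complex I, at 4.57 and 5.84 against 2.59 and 2.70. Atp5g2, of the c ring, was at 9.92 and 11 against 5.12 and 6.29, and Atp5k, subunit e of complex V, at 4.05 and 3.62 against 2.42 and 2.08. Of the other motifs searched, CCGGAAG (bound by ETS factors such as Gabpa) was in 27.8% of members and 9.93% of all genes with a promoter. AAGATGGC (Yy1) was in 12.5% and 3.19%, TGACGTCA (cAMP response element) in 5.56% and 2.03%, and CCAAT in 43.1% and 41.1%. A match is a string of letters and no evidence of binding in these cells.

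Between the libraries, few members differed by the 1.5-fold rule, while most members of germ cells were slightly higher in the library labelled DEHP_MLT. With 1 library per group this describes 2 libraries and not an effect of DEHP, and depth, erythroid RNA, cells with MHC class II transcripts and treatment cannot be told apart. Leaving out cells with UMIs of at least 2 MHC class II genes, which mark antigen-presenting immune cells, kept 102 of 202 germ, 238 of 607 granulosa, 1494 of 2440 stroma and 53 of 136 endothelial cells of the library labelled MLT. In the library labelled DEHP_MLT it kept 582 of 609, 295 of 298, 2015 of 2016 and 92 of 92, so such cells were far more common under the MLT label. The nuclear sum of germ cells was 403 in the library labelled MLT and 458 in that labelled DEHP_MLT (log2 0.18). It was 231 and 231 in granulosa cells (-0.00), 213 and 221 in stroma cells (0.06) and 215 and 238 in endothelial cells (0.15). In germ cells the 5 complexes had log2 ratios of 0.17 to 0.20, whereas in granulosa cells complex I (-0.11) and complex II (-0.17) were lower and complexes III (0.07), IV (0.09) and V (0.03) higher in the library labelled DEHP_MLT.

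In germ cells 2 of 90 members were called higher in the library labelled DEHP_MLT and none lower, beside 1.16% of all genes higher and 3.49% lower. They were Ndufb6, a membrane-arm subunit (3.04 and 4.60, log2 0.60), and Cox7b2 (0.0562 and 0.110, log2 0.86). Neither met the call without the cells with MHC class II transcripts, where the log2 ratios were 0.24 and 0.021. A single member was called higher with the looser gate, with equal weight per cell and after thinning. The log2 ratio of the nuclear sum without those cells was 0.11, beside 0.18 with them. Without the fold threshold, intervals were apart and higher for 65 members (72.2%) and lower for 2, where 5.86% of all genes were higher and 14.9% lower, and 21.3% and 36.8% of genes at 0.5 per 10,000 or more. The members' median was 0.14, beside -0.05 for all genes. Atp5d (3.67 and 5.04, log2 0.46) and Uqcrc1 (3.19 and 4.31, 0.43) followed Ndufb6 in size among members at 0.5 per 10,000 or more, and Ndufs1 (-0.20), Atp5k (-0.16) and Ndufb1-ps (-0.06) were at the lower end of these.

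In granulosa cells Ndufa4l2 was called higher (0.0170 and 0.0394) and Ndufa9 lower (0.787 and 0.487, log2 -0.68), beside 0.827% of all genes higher and 4.76% lower. There 24 members had intervals apart and higher and 37 lower, beside 4.89% and 16.1% of all genes, so the direction was mixed. Among members at 0.5 per 10,000 or more, Uqcrc2 (-0.52) lay toward the lower end, and Sdhaf1 (0.46), Atp5e (0.40) and Atp5md (0.39) toward the upper end. In stroma cells Ndufa4l2 alone was called (0.0562 and 0.101, log2 0.75), with 1.0% of all genes higher and 6.27% lower. Intervals were apart and higher for 44 members and lower for 16, beside 8.53% and 23.9% of all genes. Among members at 0.5 per 10,000 or more, Cox6b2 (0.52), Uqcrc1 (0.41) and Uqcrfs1 (0.32) were highest and Ndufb1-ps (-0.36), Atp5k (-0.31) and Sdha (-0.26) lowest. For granulosa, stroma and endothelial cells the shares with intervals apart are over all genes with a UMI, rare genes included. In germ cells such shares were 5.86% and 14.9%, but 21.3% and 36.8% among genes at 0.5 per 10,000 or more. The members' counts in the other classes must be read with that limit.

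In endothelial cells Ndufa4l2 (0.0616 and 0.193), Cox4i2 (0.0616 and 0.136) and Cox6b2 (0.150 and 0.269) were called higher and Ndufs1 (0.343 and 0.213) lower, beside 1.06% of all genes higher and 5.10% lower. Intervals were apart and higher for 25 members and lower for 3, beside 2.99% and 8.57% of all genes with a UMI, rare genes included. After thinning to 2000 UMIs per cell the Cox4i2 ratio there had the opposite sign, at -0.90 against 1.03. Ndufa4l2 was higher in 3 of the 4 classes, and its level in perivascular cells was also higher in that library, at 11.5 and 16.1. The part of perivascular RNA in the small levels elsewhere was not tested.

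The scale moves these values. With mitochondrial, ribosomal protein and haemoglobin UMIs left out of the denominator, the median over genes at 0.5 per 10,000 or more was -0.02 in germ, 0.00 in granulosa, -0.01 in stroma and -0.02 in endothelial cells, where it had been -0.06, -0.15, -0.09 and -0.13. The members' medians became 0.18, 0.07, 0.16 and 0.22, from 0.14, -0.07, 0.08 and 0.11, so the sign in granulosa cells depended on the denominator.

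Between the libraries single mitochondrially encoded genes differed in every class. The summed level of the 13 differed most in granulosa and endothelial cells, where it was higher in the library labelled DEHP_MLT. mt-Atp8 was lower in the library labelled DEHP_MLT by a log2 ratio of -1.82 in germ, -1.61 in granulosa, -2.27 in stroma and -1.96 in endothelial cells. mt-Nd6, which lies on the other strand of the mitochondrial genome from the rest, was lower by -1.94, -1.79, -1.78 and -1.94. mt-Nd4l was lower by -0.99, -0.71, -1.19 and -0.84. In germ cells these genes had the lowest levels of the 13, at 0.673 and 0.183, 0.217 and 0.0491, and 1.44 and 0.721. mt-Atp6, the other mitochondrial gene of complex V, stood at 87.5 and 81.8 there, a log2 ratio of -0.10. How well 3′ tags capture the rare mitochondrial genes was not tested. mt-Atp8, mt-Nd6 and mt-Nd4l were thus lower in every class, whereas the summed mitochondrial level had log2 ratios of 0.04, 0.32, -0.03 and 0.21. By complex (I, III, IV and V), the mitochondrial sums were all higher with intervals apart in granulosa cells (0.27, 0.33, 0.38 and 0.15). The same held in endothelial cells (0.14, 0.36, 0.25 and 0.08). No nuclear member was called lower in more than 1 class.

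**Figure D5:**
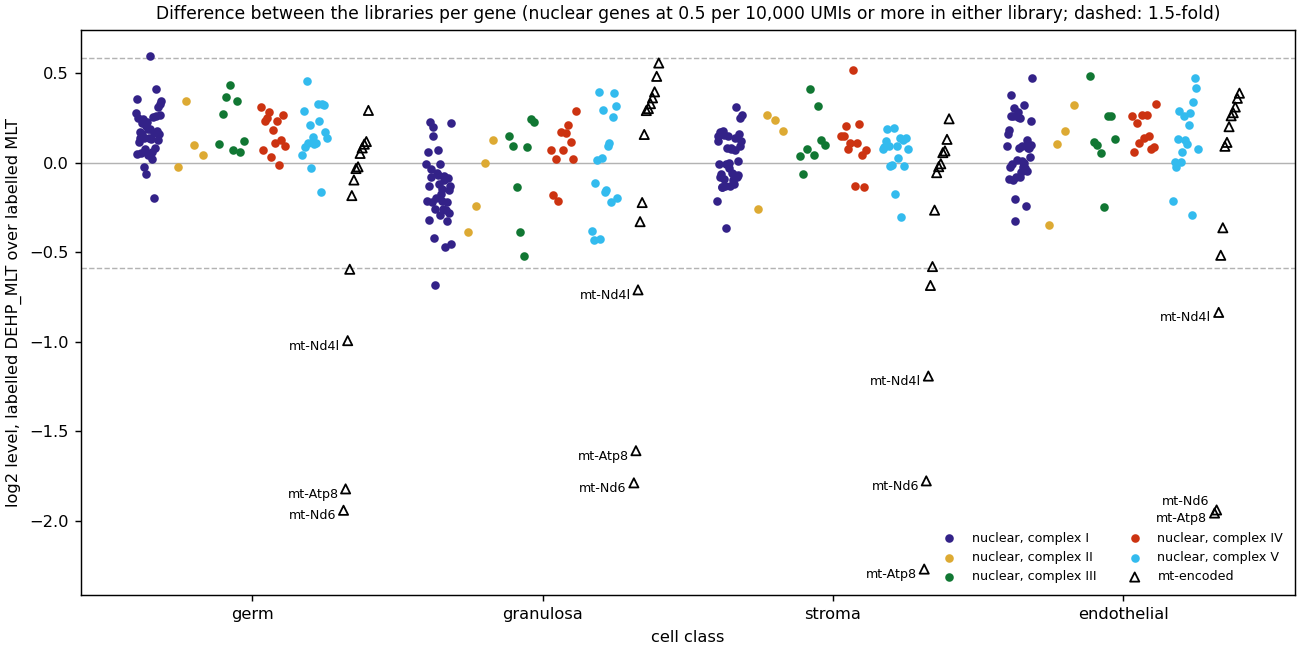
Log2 ratio of levels, library labelled DEHP_MLT over library labelled MLT, for each nuclear gene at 0.5 per 10,000 UMIs or more (filled, coloured by complex) and each mitochondrially encoded gene (triangles) in the 4 classes, with dashed lines at 1.5-fold. Nuclear genes lie within or near the dashed lines and mostly above 0 in germ cells (median of all members 0.14), while mt-Nd6, mt-Atp8 and mt-Nd4l lie below the lower line in each class.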

How the data were processed

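Droplet single-cell RNA libraries of 2 ovary samples, 1 per group, were analysed from raw counts (UMIs per gene and barcode, not normalized) that the authors deposited. Per the submitters' processing notes, Cell Ranger and Seurat 4.2.0 were used with build mm9. What each tool did, the annotation and any step against doublets are not stated there. Genes were matched by symbol.

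A barcode was kept if it had 500 genes or more and no more than 20% of its UMIs from mt- genes. This kept 5199 of the 5277 barcodes labelled MLT and 4819 of the 4819 labelled DEHP_MLT. A cell entered a class when it had at least 2 of its markers with a UMI, a class marker level of at least 0.1 of the 95th percentile of that level, and every rival class at most at 0.25 of its own. Perivascular, immune, erythroid and surface epithelium markers served as rivals, and 1334 and 863 kept cells entered no class. No doublet caller was run, so the classes must be taken to contain doublets. UMIs were pooled per class and library. Levels are per 10,000 UMIs, with exact Poisson 95% intervals, and shares of UMIs or cells have exact Clopper-Pearson intervals. These cover counting error only. Log2 ratios were taken after adding 0.01 per 10,000 (1 CPM), and a call needs 1.5-fold with intervals apart, between classes in the same direction in both libraries. No test across samples was possible with 1 library per group.

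Named genes are, by complex, the most abundant, the highest and lowest ratio and the called members, the 3 highest and 3 lowest ratios between libraries per class among members at 0.5 per 10,000 or more, the alternative subunit forms, and the ends and most abundant member of each list. A result that this rule would name is not reported here. The members and lists were chosen with earlier results of these data known. The call was checked on simulated counts. Alternatives were a stricter and a looser gate (0.1 and 0.5), equal weight per cell, the same floor of 6923 UMIs in both libraries, a denominator without mitochondrial, ribosomal protein and haemoglobin UMIs, leaving out cells with at least 2 MHC class II genes, thinning to 2000 UMIs per cell, and no filter on barcodes. Computation used pandas 2.3.3, numpy 2.4.6 and scipy 1.17.1 under Python 3.11.15, and plots matplotlib 3.10.9.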

Additional observations from a re-analysis of the deposited data

Results flagged for a closer look

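Some summed levels differed between the libraries in opposite directions in 2 cell classes, with intervals apart in each. None of these differences between classes was tested, since each group is 1 library. Nuclear complex I was higher in the library labelled DEHP_MLT in germ cells (log2 0.18) and lower in granulosa cells (-0.11). Nuclear complex II was higher in germ cells (0.18) and stroma cells (0.10) and lower in granulosa cells (-0.17). The mitochondrially encoded genes of complex V, mt-Atp6 and mt-Atp8, were lower in germ cells (-0.10) and stroma cells (-0.28) and higher in granulosa cells (0.15). The scale moves all these sums, nuclear and mitochondrial. With mitochondrial, ribosomal protein and haemoglobin UMIs left out of the denominator, the whole nuclear sum of granulosa cells had a log2 ratio of 0.15, beside -0.00 before. This change of denominator moves every sum of a class by the same log2 amount. On it complex I would not be lower in granulosa cells, and complex II would be lower by less than given here. All the differences flagged here lie below the 1.5-fold used for calls. The erythroid RNA and depth that differ between the libraries were not tested as their source.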

How the results depend on the processing

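Of 320 recomputed sums and counts, 279 kept their direction and side of the threshold. Nuclear sums kept theirs between germ and granulosa cells under every alternative (log2 0.78 to 0.86 for the MLT label and 0.88 to 1.03 for the DEHP_MLT label). The number of members called higher in germ cells ranged from 50 to 62 against granulosa, from 60 to 66 against stroma and from 53 to 64 against endothelial cells. The mitochondrial sum of germ cells of the library labelled MLT moved most. Its log2 ratio over granulosa cells, -0.46, became -0.83 with equal weight per cell, -0.72 without cells with MHC class II genes and -0.83 after thinning. Over stroma cells 0.74 became 0.28, 0.37 and 0.27, and over endothelial cells 0.50 became -0.046 with equal weight and -0.037 after thinning. That class holds 73 cells under the floor of the other library.

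Counts of members called lower were small and moved. After thinning they were 0 for germ below granulosa, stroma or endothelial cells and 1 for granulosa below stroma cells. Without cells with MHC class II genes they were 1 for germ below stroma and 0 for germ below endothelial cells, and with equal weight 0 for the latter. Between libraries, members called higher in germ cells were 1 with the looser gate, 1 with equal weight, 1 after thinning and 0 without cells with MHC class II genes, and members called lower were 1 with equal weight. The mitochondrial ratio of germ cells was -0.020 with the looser gate. In granulosa cells the nuclear ratio was 0.016 with the looser gate, 0.077 with equal weight, 0.15 with the other denominator, 0.082 after thinning and 0.0018 with no filter. Members called higher there were 0 with the stricter gate, 2 with the other denominator and 0 after thinning, and those called lower 0 with that denominator, 6 without cells with MHC class II genes and 0 after thinning. In stroma cells the other denominator gave a mitochondrial ratio of 0.058 and 2 members called higher, and thinning gave 0. In endothelial cells members called higher were 5 with that denominator, 1 without cells with MHC class II genes and 0 after thinning, and those called lower 0 with equal weight, with that denominator and without cells with MHC class II genes. The Cox4i2 ratio between libraries in endothelial cells was -0.90 after thinning. The causes were not tested. Equal-weight calls used the fold alone. No paired analysis was possible because each group is 1 library. No replicate could be left out for the same reason. Depth limits genes with few UMIs, such as Cox6a2, Cox8b and Cox7b2, and the 92 endothelial cells of the library labelled DEHP_MLT.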

Other observations

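In the classes used only to keep cells out of the others, the nuclear sum per 10,000 UMIs was 243 and 286 in perivascular cells, 268 and 292 in surface epithelium cells, 240 and 188 in immune cells and 66.3 and 125 in erythroid cells. Germ cells were above each of them in both libraries. Surface epithelium cells held Cox7a1 at 0.300 and 0.435, beside 0.261 and 0.307 in granulosa cells, and Ndufa4 at 8.0 and 8.45, beside 8.64 and 8.98 in germ cells. Their mitochondrial sum was 595 and 702. Perivascular cells had less Ndufa4, 1.53 and 1.86, than any of the 4 main classes. In erythroid cells Cox6b2 made up 46.2% and 33.7% of Cox6b UMIs, a higher share than in germ cells (24.6% and 26.6%), at a level of 0.902 and 1.16.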
